A study of Mus musculus with 30 samples.

Results

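The subject is a set of 9 transient receptor potential (TRP) channel genes of sensory neurons and skin, Trpv1, Trpv2, Trpv3, Trpv4, Trpa1, Trpm2, Trpm3, Trpm7 and Trpm8. They were taken by gene symbol from the read counts of 22609 genes, and each of the 9 had a row in all 30 libraries. RNA had been sequenced from dorsal root ganglia (DRG), where the cell bodies of sensory neurons lie, and from hind paw of C57BL/6J mice of 10 to 12 weeks. Females and males each gave 3 libraries per tissue after prolactin (PRL, 1 µg injected into the paw) and 3 after the vehicle, PBS (Veh), all made with a kit that removes ribosomal RNA. Females gave another 3 libraries per tissue under the name PRL_Sh, made with a kit that selects mRNA. No label explains Sh, and the kit, the Sh name and any difference in injection schedule cannot be told apart, because they change together. The protocol lists single injections and daily injections for 12 days without assigning them to libraries. Nothing says that the replicates came from separate animals, so a p-value measures the spread between these libraries, which may be technical.

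TRP channels are cation channels of the cell membrane that open to heat, cold, irritants, lipids or mechanical and osmotic force. In pain-sensing neurons Trpv1 responds to capsaicin and noxious heat, Trpa1 to pungent irritants, Trpm8 to cold and menthol, and Trpm3 to heat and the steroid pregnenolone sulfate. Trpv3 and Trpv4 are known from keratinocytes, where they respond to warmth, and Trpm2 and Trpv2 are known from immune cells as well as from neurons. Trpm7 is a magnesium-permeable channel fused to a kinase and is made in nearly all tissues. Prolactin is known to sensitise Trpv1, Trpa1 and Trpm8 in sensory neurons, an effect on channel activity that transcript counts do not measure.

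Each DRG library with rRNA removed had 8.99 to 13.3 M reads in genes, and each such paw library had 6.87 to 13.5 M. PRL_Sh was deeper, with 22.0 to 26.5 M reads in DRG and 21.8 to 23.2 M in paw. Levels below are gene counts scaled to the library's total of gene reads, as CPM. Where groups of libraries are said to overlap or not, this only describes the printed values. The share of all genes without overlap was not counted. Xist, the RNA that coats an inactive X chromosome, was at least 231.1 CPM in the 18 libraries labelled female and at most 6.33 CPM in the 12 labelled male. The nociceptor sodium channel gene Scn10a lay between 872.9 and 1275 CPM in all DRG libraries and at 1.73 CPM or below in paw. The epidermal keratin Krt10 lay at 40.7 CPM or below in DRG and between 14181 and 28389 CPM in paw.

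The tissue comparison asked in which tissue each channel's transcript lies. Of the 9 channels, 6 were higher in vehicle-treated DRG and 3 were higher in vehicle-treated paw, all past an adjusted p of 0.05 in the edgeR quasi-likelihood test with Benjamini-Hochberg adjustment. The same held for 85.8% of all 15598 genes tested in that comparison (42.7% higher in DRG, 43.1% higher in paw), so passing the test says little in itself, and the sizes carry the description. Bulk RNA cannot tell fewer cells of a type from less RNA per cell.

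**Figure D1:**
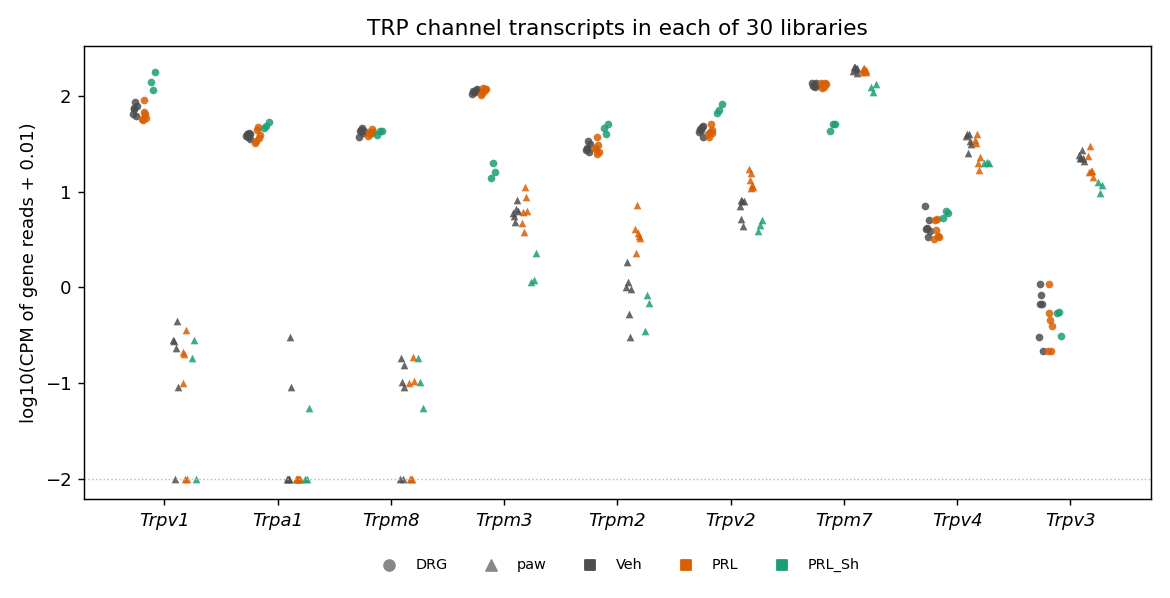
Level of each channel transcript in every library, as log10(CPM of gene reads + 0.01), with circles for DRG, triangles for paw and a colour for each arm. The dotted line marks libraries without a read. Trpv1, Trpa1 and Trpm8 sit between 32.3 and 180.2 CPM in DRG and at 0.437 CPM or below in paw, while Trpv3 and Trpv4 lie higher in paw.

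The classic channels of pain-sensing and cold-sensing neurons were nearly restricted to DRG in read counts. Trpv1 was read at 65.7, 74.1 and 73.3 CPM in the female Veh DRG libraries and at 86.1, 61.4 and 78.8 CPM in the male ones. In Veh paw it gave 0 to 3 reads per library, 13 reads over all 6. The summed reads put Trpv1 375-fold higher in DRG (exact 95% interval 219 to 705, counting error only; log2 difference 8.43 ± 0.23 SE, adjusted p = 1.09e-12). Trpa1 was read at 38.6, 40.5 and 37.4 CPM in female and 41.3, 35.6 and 40.0 CPM in male Veh DRG. All 6 Veh paw libraries together held 3 Trpa1 reads, 2 of them in male replicate 2, which gives a ratio of 859 with an interval of 294 to 4168. None of the 6 PRL paw libraries held a Trpa1 read. At a limit of 3 reads over that arm, 0.0454 CPM, Trpa1 was at least 852-fold higher in PRL DRG, and the exact interval of the ratio of reads began at 692. Trpm8 ran from 37.1 to 46.1 CPM over the 6 Veh DRG libraries and gave 5 reads in all of Veh paw, a ratio of 562 (240 to 1731). The 9 nociceptor marker genes (Scn10a, Calca, P2rx3 and others) were all higher in Veh DRG too, by a median of 9.59 on the log2 scale. Their differences ran from 3.93 to 10.33, so not all 9 were as restricted to DRG as these 3 channels.

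Trpm3, Trpm2 and Trpv2 were also higher in DRG but had a clear paw signal. Trpm3 stood at 104, 113 and 109 CPM in female and 109, 115 and 120 CPM in male Veh DRG, against 4.87 to 8.16 CPM in Veh paw (log2 difference 4.15 ± 0.08 SE, adjusted p = 7.54e-14). Trpm2, a channel opened by ADP-ribose during oxidative stress, stood at 27.5, 28.2 and 28.9 CPM in female Veh DRG and at 34.0, 26.1 and 31.4 CPM in male Veh DRG. In Veh paw it lay between 0.291 and 1.84 CPM, from 2 to 21 reads per library, so its paw level rests on few reads (log2 difference 4.96 ± 0.17 SE). Trpv2, which conducts calcium in large sensory neurons and in macrophages, had the smallest excess of the 6, at 37.2 to 48.8 CPM in Veh DRG and 4.37 to 8.15 CPM in Veh paw. Its DRG level was 6.29-fold higher by summed reads (5.70 to 6.95).

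The channels known from keratinocytes had the opposite order. Trpv3 was read at 24.1, 22.4 and 22.8 CPM in female and 27.3, 22.6 and 20.9 CPM in male Veh paw. In DRG it did not exceed 1.08 CPM in any rRNA-depleted library, and it was 37.0-fold higher in Veh paw by summed reads (27.2 to 51.8). Trpv4, which also responds to osmotic swelling, stood at 38.5, 40.6 and 25.6 CPM in female and 39.8, 33.8 and 31.2 CPM in male Veh paw, against 3.38 to 7.08 CPM in Veh DRG, a 7.73-fold excess in paw (6.85 to 8.76). The 8 keratinocyte markers tested were all lower in DRG, by a median of -10.25 on the log2 scale, a greater difference than that of either channel. Trpm7 differed least, at 124 to 137 CPM in Veh DRG and 175 to 203 CPM in Veh paw (log2 difference -0.59 ± 0.05 SE, adjusted p = 6.51e-08), and its groups did not overlap.

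In the Veh libraries none of the 8 channels tested in DRG differed between females and males by edgeR, and none of the 6 tested in paw did, where 0.0544% and 0.109% of all genes passed. The unadjusted p stayed above 0.05 for each channel in these Veh comparisons, and DESeq2 also called none. The tissue difference itself did not depend on sex for any of the 9 channels at an adjusted p of 0.05 (0.0128% of genes passed). Without adjustment 2 of the 9 had a p under 0.05, DESeq2 called none, and the closest was Trpm2 with a log2 difference of -1.14 ± 0.40 SE (adjusted p = 0.472).

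In the PRL_Sh libraries, a separate set made with the mRNA kit, the same 6 channels were higher in DRG and the same 3 higher in paw (80.2% of genes passed, 40.2% higher and 39.9% lower in DRG). The log2 differences were 9.87 for Trpv1, 11.26 for Trpa1, 8.58 for Trpm8, 6.20 for Trpm2, 4.01 for Trpv2, 3.43 for Trpm3, -4.63 for Trpv3, -1.78 for Trpv4 and -1.35 for Trpm7. The PRL_Sh paw libraries held 10 Trpv1 reads, 1 Trpa1 read and 7 Trpm8 reads in all, so the values of these channels rest on few reads.

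The stretch before each gene's start is printed here for 6 channels, chosen to show channels that were higher in DRG (Trpv1, Trpm8), channels that were higher in paw (Trpv3, Trpv4) and channels that rose after PRL in paw (Trpv2, Trpm2). RefSeq promoter windows of the mouse assembly GRCm38.p6, 250 bases before to 50 after the start, matched 8 of the 9 genes. The reads had been aligned to mm9, and no coordinate was carried between the builds. Both strands of each window were searched for a STAT5-type element (TTCNNNGAA), a RUNX core (TGTGGT), an AP-1 element (TGANTCA) and a TATA box (TATAAA). Matches are in capitals in the 250 bases before the start, written 5′ to 3′ along the gene:
Trpv1 (chr11:73233899-73234148, plus strand): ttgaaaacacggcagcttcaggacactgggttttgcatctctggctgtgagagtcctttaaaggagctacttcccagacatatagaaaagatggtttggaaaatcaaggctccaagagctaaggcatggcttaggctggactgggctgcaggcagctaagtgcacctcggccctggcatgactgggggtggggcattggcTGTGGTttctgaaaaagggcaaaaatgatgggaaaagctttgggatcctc
Trpm8 (chr1:88306485-88306734, plus strand): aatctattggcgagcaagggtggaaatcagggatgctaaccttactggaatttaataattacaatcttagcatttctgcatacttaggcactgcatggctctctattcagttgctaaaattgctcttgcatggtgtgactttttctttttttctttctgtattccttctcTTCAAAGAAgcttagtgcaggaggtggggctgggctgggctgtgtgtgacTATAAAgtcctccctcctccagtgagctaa
Trpv3 (chr11:73267270-73267519, plus strand): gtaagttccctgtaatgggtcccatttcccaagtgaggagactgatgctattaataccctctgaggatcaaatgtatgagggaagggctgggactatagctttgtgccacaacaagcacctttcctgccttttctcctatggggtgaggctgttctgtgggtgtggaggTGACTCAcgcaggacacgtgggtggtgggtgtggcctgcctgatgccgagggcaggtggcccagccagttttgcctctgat
Trpv4 (chr5:114658422-114658671, minus strand): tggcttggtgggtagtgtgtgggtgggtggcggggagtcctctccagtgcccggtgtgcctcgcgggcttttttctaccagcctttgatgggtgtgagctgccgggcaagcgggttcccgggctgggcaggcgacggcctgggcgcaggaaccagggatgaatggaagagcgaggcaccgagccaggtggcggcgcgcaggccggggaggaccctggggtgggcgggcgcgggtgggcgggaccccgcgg
Trpv2 (chr11:62574236-62574485, plus strand): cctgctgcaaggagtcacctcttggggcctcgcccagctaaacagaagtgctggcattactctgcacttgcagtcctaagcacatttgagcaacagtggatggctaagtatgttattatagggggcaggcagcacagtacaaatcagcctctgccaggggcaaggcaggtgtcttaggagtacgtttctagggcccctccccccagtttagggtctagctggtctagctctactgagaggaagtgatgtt
Trpm2 (chr10:77969873-77970122, minus strand): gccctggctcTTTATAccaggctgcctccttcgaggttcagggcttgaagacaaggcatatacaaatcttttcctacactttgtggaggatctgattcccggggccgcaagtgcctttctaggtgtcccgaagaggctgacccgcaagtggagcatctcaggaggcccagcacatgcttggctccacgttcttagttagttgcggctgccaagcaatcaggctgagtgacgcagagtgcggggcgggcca

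Trpv1 held a RUNX core 50 bases before its start, and 16.8% of all 32851 RefSeq promoter windows of this length held that motif. Trpm8 held TTCAAAGAA, a form of the STAT5-type element, 80 bases before its start and a TATA box 30 bases before it, where 8.3% and 13.6% of windows held these motifs. Trpv3 held the AP-1 element TGACTCA 81 bases before its start (7.81% of windows held the motif). RefSeq lists 3 windows for Trpv2, of which the first is shown, with a RUNX core 24 bases past the start, beyond the stretch shown. The second, which overlaps it, held that core 3 bases before its start and a TATA box 36 bases past it, and the third held no match. In Trpm2 the capitals mark a TATA box letter match on the opposite strand, 240 bases before the start. Trpv4 had no match in its window, which was 73.0% G and C with 0.833 of the CpG pairs its composition gives, against medians of 52.67% and 0.384 over all windows. The Trpm8 window was the poorest in CpG of those shown, with a ratio of 0.069. A match is a run of letters, and none was tested for binding here.

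Levels can be compared between genes only per length, and they were divided by the summed length of each gene's annotated exons (GENCODE M21, GRCm38). In the 12 rRNA-depleted DRG libraries Trpv1 came first at 19.6 ± 3.16 CPM per kilobase (SD), followed by Trpm7 at 18.4 ± 0.783 and Trpv2 at 14.1 ± 1.42 CPM per kilobase. The ranges of Trpv1 and Trpm7 overlapped, so their order does not hold beyond the spread. Trpa1 and Trpm8 had nearly equal means, at 9.13 ± 1.00 and 9.12 ± 0.554 CPM per kilobase, and Trpm3 followed at 7.77 ± 0.417. With the longest coding transcript as the length, Trpm8 and Trpm3 moved above Trpa1, so the order of these 3 depends on the gene model. Trpm2 stood at 3.90 ± 0.478, Trpv4 at 1.34 ± 0.348 and Trpv3 at 0.0938 ± 0.0544 CPM per kilobase. The rRNA-depleted paw had a different order, with Trpm7 at 26.5 ± 1.34, Trpv4 at 9.72 ± 2.55, Trpv3 at 3.67 ± 0.829 and Trpv2 at 3.28 ± 1.30 CPM per kilobase. The ranges of Trpv3 and Trpv2 overlapped there, and the other 5 channels averaged 0.452 CPM per kilobase or less.

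**Figure D2:**
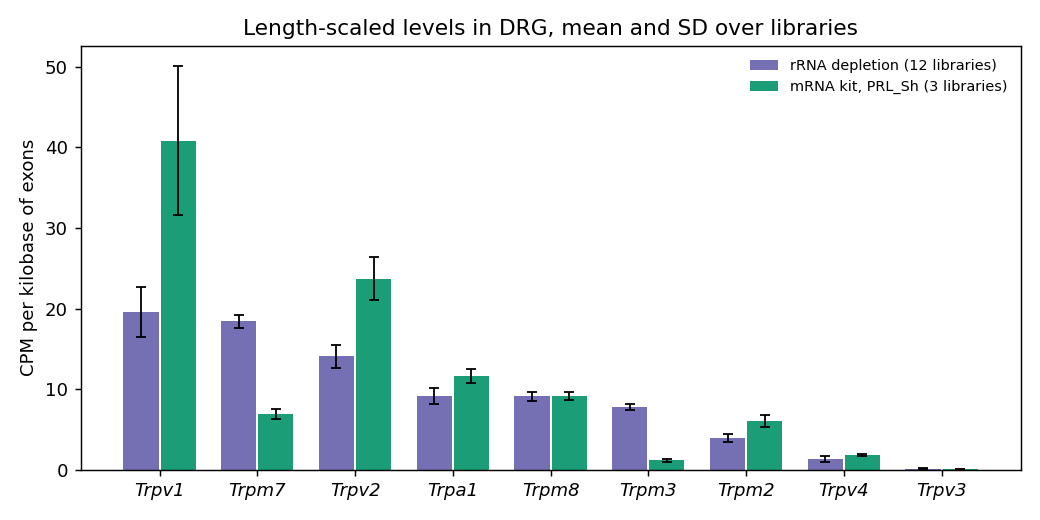
Mean level per kilobase of annotated exons in DRG for each channel, with the SD over libraries, for the 12 rRNA-depleted libraries and the 3 PRL_Sh libraries of the mRNA kit. Trpv1 leads in both, at 19.6 and 40.8 CPM per kilobase, while Trpm7 and Trpm3 lie lower in the mRNA kit.

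In DRG the arms were compared to ask whether prolactin in the paw changed channel transcripts in the ganglia that supply it. No channel passed the test. Of the 8 channels tested (Trpv3 was too low), none passed edgeR's test in females, in males or in the average of the sexes, and the female and male changes did not differ. The unadjusted p stayed above 0.05 for every channel in these comparisons, and none was called by DESeq2. The backgrounds were low too, with 0.653% of 14705 genes past the threshold in females, 0.517% in males, 3.6% in the average and 0% in the difference. Skeletal muscle markers varied widely in DRG, from a summed 607 to 25199 CPM after PRL and 300 to 1462 CPM after Veh in females. In males they summed to 3028 to 11885 CPM after PRL and 254 to 6847 CPM after Veh. None of these 12 markers passed by edgeR in either sex, and no channel passed with a muscle covariate. Fibroblast markers rose, 4 of 7 in each sex, with median log2 changes of 0.93 in females and 0.80 in males. Of 9 satellite glia and Schwann cell markers 2 rose in females and 1 in males, and none of either list fell. The part of muscle, fibroblasts and glia in the channel values was not tested.

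Trpv1 was read at 57.9, 56.8 and 67.5 CPM after PRL in females, against 65.7, 74.1 and 73.3 CPM after Veh, and at 91.2, 65.0 and 58.6 CPM against 86.1, 61.4 and 78.8 CPM in males. The female groups overlapped through PRL replicate 3 and Veh replicate 1, and the male groups overlapped widely. Its log2 changes were -0.21 ± 0.15 SE in females (adjusted p = 0.605) and -0.09 ± 0.15 SE in males (adjusted p = 0.829). The 9 nociceptor markers gave median log2 changes of -0.15 in females and -0.18 in males, none past the test. Trpv1 passed in no alternative setting, among them a nociceptor marker covariate, and the part of nociceptors in its values was not tested. Trpa1 had log2 changes of -0.06 ± 0.12 SE in females and 0.07 ± 0.12 SE in males. Trpm8 was at 40.4 ± 1.98 CPM after PRL and 41.3 ± 3.67 CPM after Veh in females, and at 42.8 ± 1.89 and 43.6 ± 2.36 CPM in males (SD, n = 3). It varied little across all 12 libraries, from 37.1 to 46.1 CPM.

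Trpm3 and Trpm7 had the smallest errors, with log2 changes of 0.04 ± 0.06 and 0.01 ± 0.06 (SE) in females and 0.02 ± 0.06 and 0.01 ± 0.06 in males. Trpm2 and Trpv2 lay between -0.11 and 0.03 on the log2 scale. Trpv4, read from 31 to 73 times per library, had the widest errors, with a log2 change of -0.30 ± 0.27 SE in females and -0.03 ± 0.28 SE in males. For all 8 channels the PRL and Veh libraries overlapped in both sexes. A missed threshold does not show that the arms were alike, and for Trpv4 the error leaves room for changes that Trpm3 and Trpm7 do not.

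**Figure D3:**
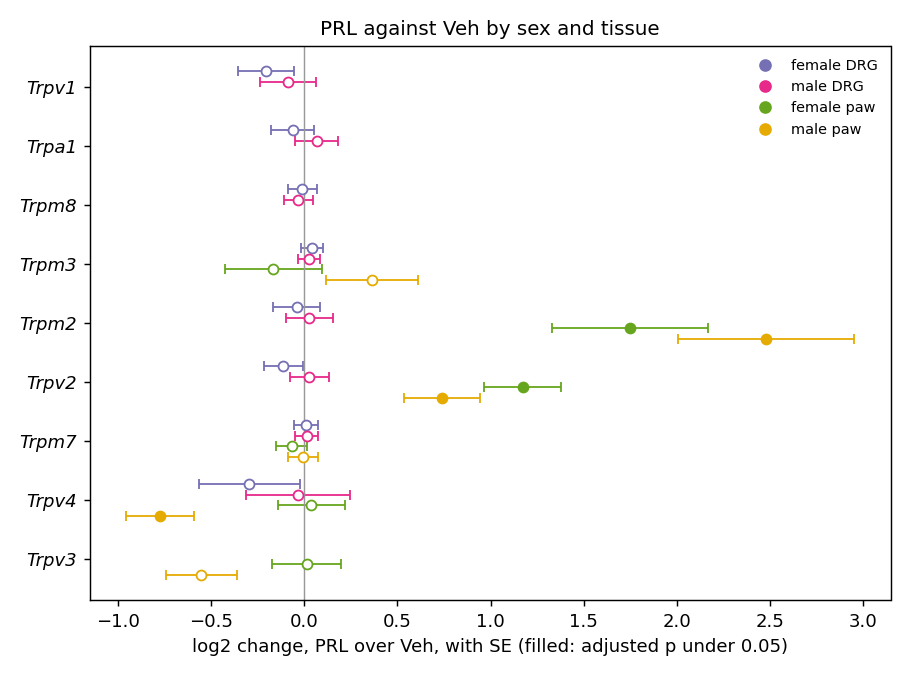
Log2 change of each tested channel between PRL and Veh, with its SE, by sex and tissue; filled circles passed an adjusted p of 0.05. The DRG values lie between -0.30 and 0.07, while Trpm2 and Trpv2 stand above 0 in both paw comparisons and Trpv4 below 0 in male paw.

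The injected paw gave another picture. There Trpm2 and Trpv2 were higher after PRL in both sexes, and Trpv4 was lower in males. Of 6 channels tested (Trpv1, Trpa1 and Trpm8 had too few reads), 2 rose in females and none fell, and 2 rose and 1 fell in males. Among all 14721 genes 7.55% passed in females (6.54% rose) and 22.4% in males (12.3% rose, 10.1% fell), so changes in paw were common. A lack of overlap between groups of 3 libraries is therefore given there as a description only.

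Trpm2 was read at 4.03, 2.29 and 7.18 CPM after PRL in females and at 1.00, 1.84 and 1.12 CPM after Veh. In males it stood at 3.66, 3.42 and 3.30 CPM after PRL and at 0.520, 0.291 and 0.962 CPM after Veh. All PRL libraries lay above all Veh libraries of their sex, and female PRL replicate 3 was the highest. The log2 change was 1.75 ± 0.42 SE in females (adjusted p = 0.0258) and 2.48 ± 0.47 SE in males (adjusted p = 0.00391). The male Veh values rest on 2 to 12 reads per library, the fewest in Veh replicate 2. The female call did not hold in 7 of 16 alternatives, among them the replicate number as a block (log2 change 1.66, adjusted p = 0.052), only the groups compared (adjusted p = 0.0885) and leaving out PRL replicate 1, PRL replicate 3, Veh replicate 1 or Veh replicate 3 (adjusted p from 0.0574 to 0.107); without PRL replicate 3 the log2 change was 1.24. The average of the sexes was 2.12 ± 0.32 SE (adjusted p = 0.000552).

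Trpv2 stood at 17.3, 13.3 and 15.6 CPM after PRL in females and at 7.12, 8.15 and 5.15 CPM after Veh. In males the values were 11.1, 11.8 and 11.3 CPM after PRL and 8.09, 4.37 and 8.02 CPM after Veh. Veh replicate 2, the shallowest library of the series, was lowest. In that library 55.5% of reads aligned to more than 1 place and 13.6% lay in genes. The other rRNA-depleted paw libraries had 41.5% to 44.8% and 22.3% to 26.2%. The groups did not overlap in either sex. The log2 change was 1.17 ± 0.20 SE in females (adjusted p = 0.00444) and 0.74 ± 0.21 SE in males (adjusted p = 0.0242). In males the call was lost in 6 of 16 alternatives, including the one without any of PRL replicates 1, 2 and 3 taken singly (adjusted p = 0.0666, 0.0587 and 0.061) and the one without Veh replicate 2 (log2 change 0.53, adjusted p = 0.0625).

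Macrophage markers moved with both channels. Of 9 markers (Ptprc, Cd68, Csf1r, Itgam, Adgre1, Aif1, Cx3cr1, Mrc1 and Cd14), 8 rose in female paw and 7 in male paw, with median log2 changes of 1.36 and 1.20. Their summed level ran from 888.7 to 1240 CPM after PRL and from 352.0 to 469.4 CPM after Veh in females, and from 904.4 to 1104 CPM against 403.7 to 630.3 CPM in males, and no marker was at 0 in any of these groups. Fibroblast markers rose as well, 3 of 7 in each sex. Trpm2 and Trpv2 are known from macrophages, and the part of these cells in their rise was not tested. With the mean macrophage marker level as a covariate none of the 14721 genes passed in either sex, because that level separates the arms, and Trpv2 then had log2 changes of 0.52 (adjusted p = 0.892) in females and 0.12 (adjusted p = 0.924) in males. Those of Trpm2 were larger than without the covariate, 3.17 (adjusted p = 0.778) in females and 3.85 (adjusted p = 0.300) in males. Nnt, a mitochondrial enzyme gene that also differed between the arms, rose by 1.65 in female paw and 2.08 in male paw on the log2 scale, and by 1.32 and 1.07 in DRG. Gabra2, the other gene checked for a difference between the arms, rose by 1.32 in female DRG and 1.26 in male DRG on the log2 scale. Both rises passed by edgeR (adjusted p = 7.1e-06 and 1.14e-05), and Gabra2 was not tested in paw. Nnt is known to differ between C57BL/6 substrains, and whether the arms differ in background was not tested.

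Trpv4 was read at 20.0, 16.7 and 23.3 CPM after PRL in male paw and at 39.8, 33.8 and 31.2 CPM after Veh, without overlap (log2 change -0.77 ± 0.18 SE, adjusted p = 0.0114). In female paw it stood at 35.0, 32.1 and 40.3 CPM after PRL and at 38.5, 40.6 and 25.6 CPM after Veh, with overlap (log2 change 0.04 ± 0.18 SE, adjusted p = 0.936). The difference between the sexes, 0.81 ± 0.26 SE on the log2 scale, did not pass the test (adjusted p = 0.257). Trpv3 had the same order in males, at 16.3, 16.6 and 14.3 CPM after PRL and 27.3, 22.6 and 20.9 CPM after Veh, again without overlap, but its log2 change of -0.55 ± 0.19 SE missed the threshold (adjusted p = 0.0552). In 4 alternatives, DESeq2 among them, Trpv3 passed in males (adjusted p from 0.0204 to 0.0478). In females Trpv3 was at 23.8, 16.1 and 30.2 CPM after PRL and 24.1, 22.4 and 22.8 CPM after Veh. In the average of the sexes neither passed, with -0.37 ± 0.13 SE for Trpv4 (adjusted p = 0.0545) and -0.27 ± 0.13 SE for Trpv3 (adjusted p = 0.161). Trpv4 passed there in 6 of 21 alternatives, among them RLE scaling (adjusted p = 0.0415), no filter (adjusted p = 0.0394) and DESeq2 (adjusted p = 0.0187). That average had 2 channels up and none down, where 24.9% of genes passed and 14.9% rose.

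Keratinocyte, adipocyte and melanocyte markers included genes that fell in the same male libraries. Of 8 keratinocyte markers tested, 3 fell in males (Trp63, Krt5 and Krt10) and none changed in females by edgeR. Their summed level ran from 25665 to 35041 CPM after PRL and from 41874 to 50058 CPM after Veh in male paw, and from 28708 to 39138 CPM and 30420 to 40876 CPM in female paw, with no marker at 0. Of 5 adipocyte markers 2 fell in males, with a median log2 change of -1.23, against -0.42 for the keratinocyte list, and their summed level was 53.1 to 78.1 CPM after PRL and 83.3 to 89.3 CPM after Veh, with none at 0. Of 3 melanocyte markers tested 1 fell, with a median of -1.20. The melanocyte list of 5 summed to 1.11 to 4.52 CPM after PRL, with 1 marker at 0, and to 4.81 to 9.87 CPM after Veh. None of the 12 skeletal muscle markers passed by edgeR in either sex. Their log2 changes ran from 0.68 to 1.02 in male paw and from -1.10 to -0.08 in female paw. In male paw they summed to 55728 to 121334 CPM after PRL and 15557 to 75286 CPM after Veh. The part of keratinocytes, adipocytes, melanocytes and muscle in the Trpv4 and Trpv3 values was not tested. With the mean muscle marker level as a covariate both channels passed by edgeR in the average of the sexes. The log2 changes were then -0.38 for Trpv4 (edgeR adjusted p = 0.0239) and -0.30 for Trpv3 (edgeR adjusted p = 0.0318). With the mean keratinocyte marker level as a covariate the male Trpv4 change was -0.61 on the log2 scale and no longer passed (edgeR adjusted p = 0.300). The summed keratinocyte level did not overlap between the male arms, and 830 of 14721 genes passed with the covariate, against 3301 without it. Male Trpv2 also lost its call, though its log2 change was larger, at 1.09 (edgeR adjusted p = 0.0747). No conclusion about keratinocytes is drawn from the lost calls.

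Trpm3 and Trpm7 did not pass in paw. Trpm3 was at 11.1, 8.87 and 6.22 CPM after PRL and 6.61, 8.16 and 6.34 CPM after Veh in males, and at 4.74, 6.18 and 3.78 CPM against 6.02, 5.61 and 4.87 CPM in females. Trpm7 had log2 changes of -0.07 ± 0.08 SE in females and -0.01 ± 0.08 SE in males. No channel differed between the sexes in its change, where 0.00679% of genes passed in edgeR; without adjustment the p of 1 of the 6, Trpv4, was under 0.05, and none was called by DESeq2.

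**Figure D4:**
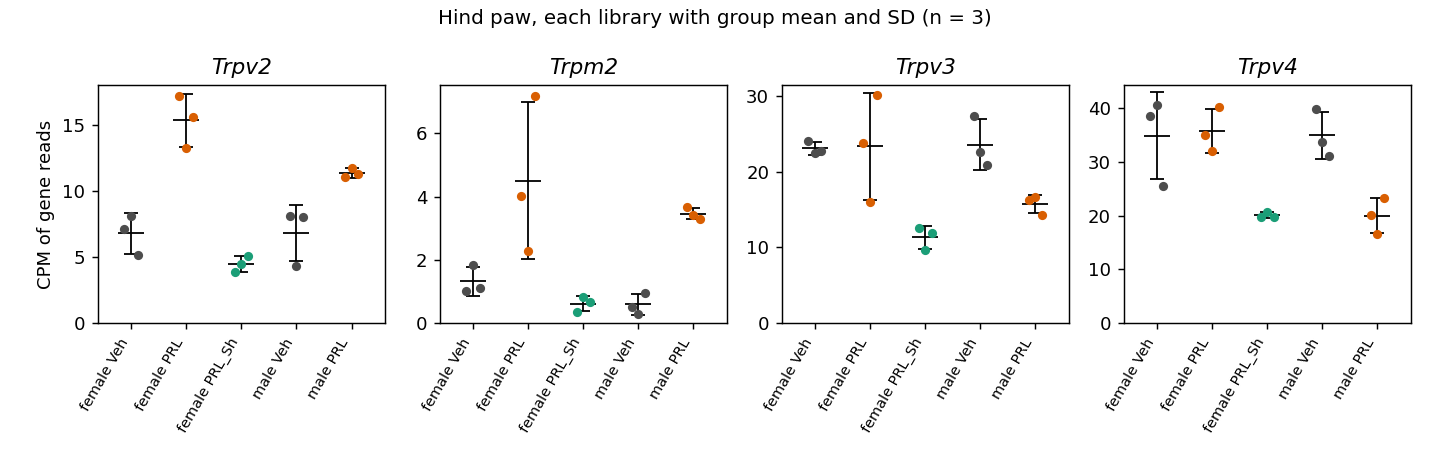
CPM of Trpv2, Trpm2, Trpv3 and Trpv4 in each paw library by group, with the group mean and SD (n = 3). The PRL libraries lie above the Veh libraries for Trpv2 and Trpm2 in both sexes, the male PRL libraries lie below the male Veh libraries for Trpv3 and Trpv4, and all PRL_Sh libraries lie low.

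The change after PRL was then compared between the tissues. The response was lower in DRG than in paw for Trpv2, with a log2 difference of -1.01 ± 0.16 SE (edgeR adjusted p = 0.000205), and for Trpm2, with one of -2.14 ± 0.30 SE (edgeR adjusted p = 8.64e-05), where 14.9% of 15949 genes passed and 9.8% had a lower response in DRG. Trpv4, Trpv3, Trpm3 and Trpm7 did not pass, with differences of 0.19 ± 0.23, -0.18 ± 0.43, -0.09 ± 0.17 and 0.03 ± 0.07 (SE). For Trpv1, Trpa1 and Trpm8 the paw reads were too few for such a difference to be read.

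PRL_Sh was set against the female PRL libraries of the same tissue, a comparison in which kit and group change together. In DRG 5 of 8 channels passed, with Trpv1, Trpv2 and Trpm2 higher in PRL_Sh and Trpm3 and Trpm7 lower, where 61.6% of 14985 genes passed, 29.3% higher and 32.3% lower. Trpv1 was read at 141, 115 and 180 CPM in PRL_Sh against 57.9, 56.8 and 67.5 CPM in PRL (log2 change 1.03 ± 0.16 SE, adjusted p = 0.000813). Trpv2 stood at 65.8, 71.5 and 81.8 CPM against 39.7, 37.8 and 42.3 CPM, and Trpm2 at 46.1, 39.7 and 50.8 CPM against 28.5, 27.7 and 24.7 CPM, none with overlap. Of the 9 nociceptor markers 6 rose with Trpv1, and their summed level was 5266 to 6471 CPM in PRL_Sh and 3404 to 3922 CPM in PRL. Of 7 myelinated sensory neuron markers 1 rose and 4 fell, with a median log2 change of -0.49. Of 6 keratinocyte markers tested 4 rose and 1 fell, at a low summed level of 45.5 to 48.2 CPM in PRL_Sh and 23.2 to 29.8 CPM in PRL. In the same comparison 6 of 9 macrophage markers, 7 of 7 fibroblast markers and 6 of 7 vascular markers fell. The summed macrophage level was 106.5 to 131.2 CPM in PRL_Sh and 192.8 to 226.1 CPM in PRL, with none at 0. The part of these cells in the channel values was not tested. Trpa1, Trpm8 and Trpv4 did not pass, with log2 changes of 0.21 ± 0.12, -0.17 ± 0.08 and 0.29 ± 0.20 (SE). Trpa1 libraries were nonetheless all higher in PRL_Sh, at 46.4, 49.0 and 53.5 CPM against 32.3, 33.9 and 44.1 CPM.

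Trpm3 fell furthest, from 103, 109 and 120 CPM in PRL to 13.9, 19.9 and 16.3 CPM in PRL_Sh DRG (log2 change -2.95 ± 0.14 SE, adjusted p = 1.95e-06). Trpm7 fell from 137, 121 and 132 CPM to 43.6, 51.5 and 51.1 CPM (log2 change -1.64 ± 0.10 SE, adjusted p = 5.22e-06). Trpm3 spans 856.4 kilobases, the longest of the 9 genes, and its exons overlap those of 2 genes on the opposite strand, C330002G04Rik and Gm27151. The strand setting of the counts is not given in the sources used here, so reads of these genes may not be separable. Such overlap was not particular to Trpm3. Exons of Trpm2 overlap those of 2 genes on the same strand, Gm22394 and Gm22871, and exons of Trpm8 those of 1 on the opposite strand, 4930453O03Rik. Reads outside annotated features made up 34.5% to 35.8% of the file in rRNA-depleted DRG and 10.8% to 11.3% in PRL_Sh DRG. Its part in the Trpm3 and Trpm7 values was not tested. Trpm3 ranked above Trpm2 per kilobase in the rRNA-depleted DRG and below it in PRL_Sh, at 1.15 ± 0.210 against 6.06 ± 0.739 CPM per kilobase (SD, n = 3).

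In paw all 6 channels tested were lower in PRL_Sh, where 58.5% of 14800 genes passed and 29% fell. Trpm2 stood at 0.344, 0.826 and 0.678 CPM against 4.03, 2.29 and 7.18 CPM in PRL (log2 change -2.87 ± 0.50 SE, adjusted p = 0.00245). Trpv2 stood at 3.92, 4.50 and 5.11 CPM against 17.3, 13.3 and 15.6 CPM (-1.78 ± 0.18 SE, adjusted p = 0.000246). Both lay below the female Veh libraries as well, with which they share no kit, so no order is drawn from that. Trpm3 changed by -1.68 ± 0.37, Trpv3 by -1.05 ± 0.23, Trpv4 by -0.85 ± 0.12 and Trpm7 by -0.61 ± 0.13 (SE) on the log2 scale. All 9 macrophage markers fell too, to a summed 133.1 to 145.2 CPM, as did 6 of 7 fibroblast markers, while 6 of 12 skeletal muscle markers and 4 of 8 keratinocyte markers rose. The part of these cells in the channel values was not tested. The comparison shares its PRL libraries with the comparison of PRL and Veh.

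**Figure D5:**
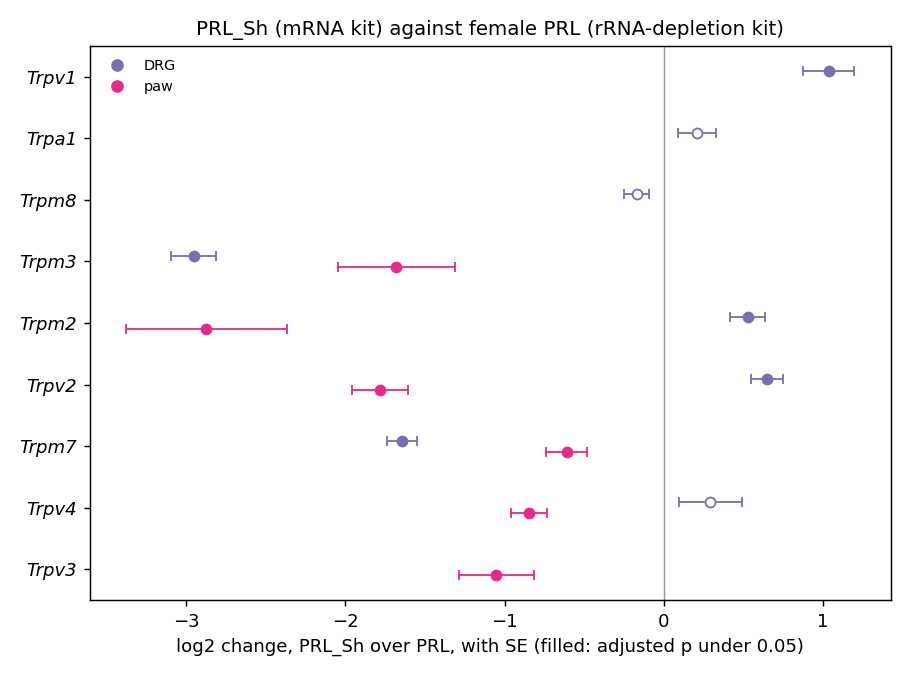
Log2 change of each tested channel between PRL_Sh (mRNA kit) and female PRL (rRNA-depletion kit), with its SE, in DRG and paw; filled circles passed an adjusted p of 0.05. Trpv1, Trpv2 and Trpm2 lie above 0 in DRG, where Trpm3 and Trpm7 lie below, and all 6 channels tested in paw lie below 0.

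The tissues differed in this change for 5 of the 9 channels, where 38.6% of 16110 genes passed (12.7% above 0 and 25.9% below). The change was greater in DRG than in paw by 2.37 ± 0.19 SE for Trpv2, 3.34 ± 0.48 SE for Trpm2 and 1.07 ± 0.22 SE for Trpv4 on the log2 scale. It was lower in DRG for Trpm3 (-1.33 ± 0.35 SE) and Trpm7 (-1.09 ± 0.15 SE). The Trpm3 call was lost without female DRG PRL replicate 3 (-0.98, adjusted p = 0.0793). The median of all genes in this contrast was -0.19 under TMM scaling, 0.02 under RLE scaling and 0.09 by library sizes alone, so the values should be read against that shift. In the DRG comparison of PRL_Sh with PRL the median of all genes was 0.22 by library sizes alone.

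The other genes of the TRP family were counted in a list of 19. In DRG none of the 12 tested passed between PRL and Veh in either sex by edgeR, where 0.653% and 0.517% of all genes passed. In paw Mcoln2, a lysosomal cation channel, rose by 1.40 ± 0.24 SE in females (adjusted p = 0.00418) and 2.37 ± 0.24 SE in males (adjusted p = 0.000118). Trpm4, a calcium-activated sodium channel, fell by 0.41 in females and by 0.33 in males on the log2 scale. Trpm1 rose by 1.48 in females, on few reads, 46 over the PRL libraries and 17 over the Veh libraries. In males Trpm1 did not pass, with 27 reads after PRL and 31 after Veh. Trpc1 fell by 0.58 in males. Of 11 tested in paw, 3 in each sex passed, where 7.55% of all genes passed in females and 22.4% in males. Between tissues, where 42.7% of all genes were higher in Veh DRG and 43.1% in Veh paw, 10 of 14 were higher in Veh DRG, among them Trpc6 (3.21) and Trpc1 (1.97), and 3 were higher in paw, namely Trpv6 (-8.40), an epithelial calcium channel, Mcoln2 (-3.55) and Trpm4 (-1.53).

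Genes that regulate TRP channels or partner with them formed a list of 24. In DRG none of the 22 tested passed in a single sex by edgeR, where 0.653% of all genes passed in females and 0.517% in males. In the average of the sexes 1 of the 22 fell, where 3.6% of all genes passed. In female paw only Prkcd, a protein kinase C gene, passed by edgeR (0.44 ± 0.12 SE, adjusted p = 0.0464), among 22 tested. Of all genes 7.55% passed there and 6.54% rose, so 1 of 22 is no more than the background. In male paw 3 of 22 rose and 4 fell, where 12.3% of all genes rose and 10.1% fell. The rises were Il6st, the shared receptor subunit of the interleukin-6 family (0.46), and the prostaglandin receptors Ptger4 (0.92) and Ptgir (0.83). The falls included Cdk5r1, the activator of the kinase Cdk5 (-1.08), the chloride channel Ano1 (-0.65) and the bradykinin receptor Bdkrb2 (-1.12). The medians of this list, 0.03 in female and -0.05 in male paw, lay near those of all genes, -0.01 and 0.02. In Veh, 13 of 23 were higher in DRG and 5 in paw, where 42.7% of all genes were higher in DRG and 43.1% in paw. Pirt, a membrane protein that binds Trpv1 and Trpm8, was higher in DRG by 8.85 on the log2 scale.

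Genes with the pattern most like each channel were named by Pearson correlation of log2 CPM over the 12 rRNA-depleted libraries of the tissue where the channel was higher. These are descriptions, picked as the highest of all genes, and the libraries share arm, sex and depth. In DRG the closest gene was Mgat4a to Trpv1 (r = 0.952), Slc29a4 to Trpv2 (0.953), Kcnk3 to Trpa1 (0.925), Trnt1 to Trpm2 (0.912), Oscp1 to Trpm3 (0.913) and Klhdc2 to Trpm8 (0.942). Slc29a4 was also the second closest to Trpv1 (0.939). In paw they were Smad7 to Trpv3 (0.985), Mark1 to Trpv4 (0.947) and Pdk1 to Trpm7 (0.882).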

How the data were processed

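RNA of 30 libraries, 10 groups of 3, was measured as raw read counts per gene, as deposited by the authors. Per the labels' protocols, 500 ng of RNA, an rRNA-removing KAPA or mRNA-selecting TruSeq stranded kit and single reads of 50 nt were used. The submitters' processing notes name bcl2fastq, TopHat2, HTSeq and mm9; their versions, the annotation, the counting mode and the use of strand are not given here. Each file held 22609 genes and 5 summary lines, which stayed out of library sizes. Groups came from the labels.

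The test was that of edgeR 4.0.16, run in R 4.3.3 (filterByExpr, TMM, quasi-likelihood F test, Benjamini-Hochberg over all genes, threshold 0.05). A fit with group means took the 12 rRNA-depleted libraries of a tissue for the arms, the 12 Veh libraries for the tissues, the 24 rRNA-depleted libraries for the response by tissue, and the female PRL and PRL_Sh libraries for the kits. Printed CPM are unscaled; log2 changes are scaled by TMM. Intervals of ratios are exact binomial, 95%, and the limit for no reads is 3 reads over an arm; both cover counting error only. All 9 members were named in each comparison that tested them and could be read; of the other TRP and regulator lists up to 6 that passed, by p; and the gene most like each member by Pearson correlation. The members and lists were chosen with earlier results of these data known. Markers were counted in lists of nociceptor, glial, keratinocyte, muscle, macrophage, fibroblast and other cells, with those that moved with a channel given beside it. Some results of the other TRP and regulator lists are not reported here. Flg was not matched, and Adgre1 was read as Emr1.

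Other settings tried were RLE scaling, DESeq2 1.42.0, a filter at 1 CPM in 3 libraries and no filter. Also tried were only the groups compared, the replicate number as a block, a muscle covariate and leaving out each library. In fits that spanned both tissues the block was sex, arm and replicate number together, which pairs DRG and paw libraries of the same number. Library sizes alone, macrophage, keratinocyte and nociceptor covariates and another gene length were chosen after the data were seen. Code was tested on simulated data.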

Additional observations from a re-analysis of the deposited data

Results flagged for a closer look

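A difference between tissues in the same contrast drew attention to 7 results, each by a test of the difference itself. Between PRL and Veh, averaged over the sexes, the change in DRG minus that in paw was -1.01 for Trpv2 and -2.14 for Trpm2 on the log2 scale. Between PRL_Sh and female PRL the change in DRG minus that in paw was 2.37 for Trpv2, 1.07 for Trpv4, 3.34 for Trpm2, -1.33 for Trpm3 and -1.09 for Trpm7. Trpv2 and Trpm2 are in both sets, which share the female PRL libraries.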

How the results depend on the processing

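Of 43 channel results past the threshold, 35 kept it in all alternatives, and of 80 not past it 75 stayed so; none that passed reversed. Among values that never passed, the sign changed 135 times. In female paw, PRL against Veh, the count of channels called was 2, and it was 1 with the replicate block, 1 with only the groups compared, 0 with the macrophage covariate and 1 to 2 leaving out each library. In male paw the count of 3 was 0 with the macrophage covariate, 1 with the keratinocyte covariate and 2 to 3 leaving out each library. In the paw average the count of 2 was 4 with the muscle covariate, 0 with the macrophage covariate and 2 to 4 leaving out each library; the 4 came without female paw PRL replicate 3, where Trpv3 (adjusted p = 0.0242) and Trpv4 (adjusted p = 0.0387) passed. The macrophage covariate left 0 of 14721 genes called in each of these, since it separates the arms. The keratinocyte covariate left 830 called in male paw, where 3301 were called without it. With the replicate block Trpm2 in female paw was 1.66 (edgeR adjusted p = 0.052), and no other channel call changed under the block. Same-numbered libraries did not deviate together (correlations from -0.584 to 0.392), so the main fits did not pair the libraries by number. PRL_Sh against PRL in DRG gave 5 to 6 channels leaving out each library. In that contrast Trpa1 passed without female DRG PRL replicate 3 (0.36) and by library sizes alone (0.43), and Trpv4 passed by library sizes alone (0.52). Depth limits Trpv1, Trpa1 and Trpm8 in paw, Trpv3 in DRG and Trpm2 in Veh paw.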
